A study of Mus musculus with 3 samples.

Results

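NIH/3T3 cells, a line of mouse embryo fibroblasts, were compared between recovery and mock across all genes on Illumina bead arrays, whose probes are read as signal intensity. Recovery cells received 1 uM 5aza-dC, replaced daily for 3 days, and were then grown for 14 days without the drug. Cells at the end of the same 3 days of exposure form the 5aza-dC group and are used only to place recovery values. Mock cells were mock treated, which the labels do not describe further. Whether they were grown for as long is not given, so earlier drug and added time in culture cannot be told apart here. All groups are of 1 cell line, given as fibroblasts, grown in the same medium with foetal calf serum, and the comparison takes 2 of the 3 samples of the series. Each deposited column is the mean of duplicates, and the 2 arrays behind each column could be computed back from the 2 deposited tables, which gave 4 of 6 arrays to the comparison. All 8411 of 19057 measured genes that were detected in the recovery or the mock column, at a detection p-value below 0.01, were tested.

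5aza-dC (decitabine) is a cytidine analog that is built into replicating DNA and traps DNA methyltransferases, so that methyl groups are lost as cells divide. CG sites, the bases that these enzymes methylate, are methylated at the promoters of many germ cell genes in somatic cells. Methylation also holds endogenous retroviruses silent, and after its loss their RNA is known to set off the interferon response in several cell types. Once the drug is gone, the maintenance enzyme Dnmt1 with its partner Uhrf1 and the de novo enzymes Dnmt3a and Dnmt3b can copy or rebuild the marks. Methylation itself was not measured here.

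A level is given below as normalised log2 intensity on each of the 2 arrays of a group, and a difference as recovery minus mock on the log2 scale ± SE from limma with n = 2 arrays per group. The words rose and fell are kept for genes that passed limma at a Benjamini-Hochberg adjusted p below 0.05 over all genes tested. A call means at least 2-fold on the deposited columns with detection in the brighter one, and has no test of its own. Where a further detected probe of a named gene gave a difference smaller by more than 0.5, its value on the deposited columns is added, as for 14 genes. The fold is a lower bound where a gene was detected on neither array of its dimmer group. Such a gene entered the test only through its brighter group, so list counts that include such genes are descriptions. Whether the 2 arrays of a group stand for the independent experiments or for 1 RNA measured again is not given in the sources, so the p-values cover the spread between arrays and nothing more. In RNA of whole cultures, more cells that express a gene and more RNA per cell cannot be told apart.

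Mock array 2 stood apart. On the raw scale it correlated with mock array 1 at r = 0.9837, whereas the 2 recovery arrays correlated at 0.9976 and mock array 1 with recovery array 1 at 0.9908. The median SD within a pair was 0.054 log2 in recovery and 0.091 in mock. The scale factors of a pair had a ratio of 1.17 in recovery and 1.72 in mock. Some named results that lean on mock array 2 are marked below, and unmarked falls may also owe part of their size to it.

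The promoters of 3 genes are shown, chosen because these germ line genes were among the called ones and because their windows hold different numbers of CG sites. The sequences run from 250 bases before to 50 after the gene start, are RefSeq's for GRCm38.p6, read 5′ to 3′ on the gene's strand, and have each CG in capitals.
Tex19.1, chr11:121145893-121146192, plus strand: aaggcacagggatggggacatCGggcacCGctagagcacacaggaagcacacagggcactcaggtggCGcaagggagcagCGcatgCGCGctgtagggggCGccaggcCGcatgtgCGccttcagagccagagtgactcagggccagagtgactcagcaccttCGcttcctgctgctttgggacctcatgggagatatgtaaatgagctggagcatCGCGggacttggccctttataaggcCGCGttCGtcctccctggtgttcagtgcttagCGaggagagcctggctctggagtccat
Rhox5, chrX:37754358-37754657, plus strand: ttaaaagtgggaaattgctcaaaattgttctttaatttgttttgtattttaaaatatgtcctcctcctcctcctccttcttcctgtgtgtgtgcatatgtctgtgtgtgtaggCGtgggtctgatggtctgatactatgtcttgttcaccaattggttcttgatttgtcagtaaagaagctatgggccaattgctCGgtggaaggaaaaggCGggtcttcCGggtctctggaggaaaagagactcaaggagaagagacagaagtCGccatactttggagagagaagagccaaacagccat
Xlr4a, chrX:73082458-73082757, minus strand: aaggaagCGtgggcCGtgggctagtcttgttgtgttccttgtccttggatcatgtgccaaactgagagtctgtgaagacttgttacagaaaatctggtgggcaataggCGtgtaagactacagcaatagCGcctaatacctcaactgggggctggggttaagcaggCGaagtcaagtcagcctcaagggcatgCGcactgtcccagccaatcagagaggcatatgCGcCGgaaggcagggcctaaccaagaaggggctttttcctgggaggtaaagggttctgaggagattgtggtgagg
The Tex19.1 window holds 16 CG, a number reached by 33.0% of all promoter windows of this length in the table. Rhox5 has 5 CG, reached by 62.0%, and Xlr4a has 8, reached by 48.6%. The count describes the sequence and says nothing of its methylation in these cells.

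Across the genes tested, 152 were called higher in recovery, 1.81% of them, and 139 were called lower, 1.65%, which makes 3.46% in either direction. By limma 2010 genes rose (23.9%) and 1722 fell (20.5%), with a median difference of 0.03 over all genes tested. Differences of 4-fold or more were found in 16 genes called higher and 4 called lower. All called genes passed limma in the same direction except Idh2, a mitochondrial dehydrogenase outside the rule for named genes, at -0.86 ± 0.36 (adjusted p = 0.0916). For 36 of the genes called higher neither mock array detected the gene, and for 15 called lower neither recovery array did. The X chromosome carried 12 of the genes called higher (7.89%) and 2 of those called lower (1.44%), beside 3.07% of the genes tested.

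The lower calls leaned on mock array 2. In 40 of the 139 genes called lower the mock arrays lay more than 0.5 apart, and array 2 was the higher one in all 40, whereas this spread was seen in 3 of the 152 called higher. On the array means 83 genes were called lower without mock array 2, of which 70 were among the 139, and 193 without mock array 1. Genes called higher numbered 149 and 168 in these 2 settings. Scaling the arrays to the median of all probes in place of quantile normalisation moved the median of all genes to -0.27 in limma, with 67 genes risen and 278 fallen, and 73 called higher against 467 called lower, so the balance of higher and lower genes depends on the scaling. All gene lists were chosen with earlier results of these data known, so the direction of no list is independent evidence. Few list members passed limma under median scaling, and these counts are given beside the main ones. Genes of the naming rule that did not pass under median scaling are marked below. The tests under it took no difference as reference and not the shifted median, so rises passed less easily and falls more easily. Of 32 genes named after their values were seen, 26 passed limma, 2 of these (Myc and Fhl2) under median scaling too, and 19 with any 1 array left out, the exceptions being Rsad2, Isg15, Isg20, Egr1, Egfl7, Nes and Ccl7.

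**Figure D1:**
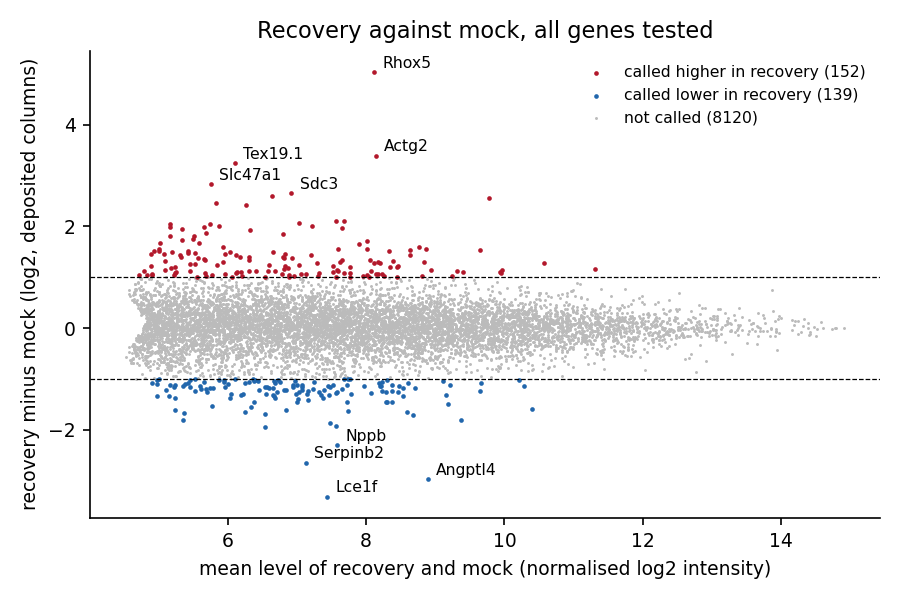
Recovery minus mock difference (log2, deposited columns) of the 8411 genes tested, against the mean normalised log2 level of both groups. Dashed lines mark the 2-fold call, red points are the 152 genes called higher in recovery and blue points the 139 called lower, and Rhox5 lies above all others at 5.04.

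The gene with the largest rise was Rhox5, an X-linked homeobox gene normally used in the testis and ovary, which is silenced by methylation in most mouse tissues. Its level was 10.61 and 10.67 on the recovery arrays and 9.77 and 9.78 on the 5aza-dC arrays, against 5.49 and 5.68 on the mock arrays. Both recovery arrays were above both mock arrays, as was the case for 39.4% of the genes tested, while 34.1% had both recovery arrays lower. The difference was 5.06 ± 0.09 (adjusted p = 1.48e-06), 33.3-fold, and the level in recovery was also above that at the end of exposure, by 0.86 (adjusted p = 0.000492). In the deposited signal, Rhox5 read 1443 in recovery, 916 in 5aza-dC and 101 in mock.

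Xlr4a, an X-linked gene of the Xlr family of lymphoid and germ cell nuclear proteins, had a different course. It stood at 6.06 and 6.26 in recovery and 4.53 and 4.72 in 5aza-dC, against 4.23 and 4.13 in mock. Neither mock array detected it, so that it was at least 2.58-fold higher in recovery (adjusted p = 5.95e-05). The rise after exposure, recovery minus 5aza-dC, was 1.54 (adjusted p = 8.73e-05). Tex13b, a further X-linked germ cell gene, had 5.87 and 5.88 in recovery and 6.10 and 6.12 in 5aza-dC, against 4.21 and 4.14 in mock, and was at least 2.12-fold higher in recovery than in mock (adjusted p = 3.05e-05). Rhox12 was the fourth member of the X-linked list that could be tested, of 26 measured, and it did not pass (adjusted p = 0.292). Xlr4a and Tex13b entered the test only through recovery, so the count of 3 risen of 4 is a description, as it is under median scaling, where 3 passed.

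Of the genes that guard the germ line genome against transposons, 9 of 30 measured were detected in recovery or mock. Tex19.1, which represses retrotransposons in mouse germ cells and placenta, stood at 7.70 and 7.75 in recovery and 9.43 and 9.44 in 5aza-dC, against 4.48 and 4.49 in mock. It was at least 7.63-fold higher in recovery than in mock (adjusted p = 1.97e-06), and its level in recovery was below that at the end of exposure, with a difference of -1.71 (adjusted p = 9.28e-06). Its deposited signal was 231 in recovery, 742 in 5aza-dC and 67.9 in mock. The neighbouring copy Tex19.2 had the same order of levels, 5.24 and 5.47 in recovery, 7.08 and 7.13 in 5aza-dC and 4.21 and 4.23 in mock, and was at least 1.48-fold higher in recovery than in mock (adjusted p = 0.000336).

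Among the genes of the piRNA pathway, which makes small RNAs that direct transposon silencing, Piwil2 encodes a Piwi protein. Its level was 6.02 and 6.02 in recovery and 6.23 and 6.33 in 5aza-dC, against 4.64 and 4.57 in mock, at least 2.34-fold higher (adjusted p = 6.1e-05). Mov10l1, the helicase of piRNA precursors, had 5.72 and 5.29 in recovery and 5.44 and 5.01 in 5aza-dC, against 4.28 and 4.24 in mock, at least 1.64-fold higher (adjusted p = 0.00234). For Asz1, a mitochondrial surface protein of the same pathway, the levels were 5.89 and 5.77 in recovery and 5.45 and 5.65 in 5aza-dC, against 4.73 and 4.56 in mock, at least 2.06-fold higher (adjusted p = 0.000402). Neither mock array detected any of these 3 genes, so they entered the test only through recovery.

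The remaining members were expressed in mock cells too. The Tudor domain genes Tdrd7 and Tdrkh rose by 0.45 ± 0.09 (adjusted p = 0.00665) and 0.29 ± 0.08 (adjusted p = 0.0276), while the RNA helicase gene Ddx25 differed by -0.13 ± 0.09 (adjusted p = 0.297) and Dnd1, an RNA-binding protein of primordial germ cells, by -0.02 ± 0.08 (adjusted p = 0.83). The difference of Tdrkh was not past the threshold without recovery array 1, recovery array 2 or mock array 1 (adjusted p up to 0.16). Under median scaling Asz1, Tdrd7, Tdrkh and Tex19.2 did not pass, and 3 of the 9 rose. The 5 genes called higher were detected on no mock array and entered the test only through recovery, so their count is a description and no measure of the list. Only 1 of 29 measured meiosis genes was detected, the mismatch repair gene Mlh3, at -0.06 ± 0.08 (adjusted p = 0.625).

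The median of interferon-stimulated genes was close to mock in recovery. Of 29 tested, 9 rose (31.0%) and 5 fell (17.2%), with a median difference of 0.10, beside 3.17 for 5aza-dC minus mock in the same genes. In recovery 28 of the 29 were lower than in 5aza-dC by limma, where 18.1% of all genes tested were. Irgm2, an interferon-inducible GTPase of host defence named here after its value was seen, led the rises of the list (adjusted p = 0.000309), with 5.19 and 5.33 in recovery and 10.18 and 10.18 in 5aza-dC, against 4.19 and 4.30 in mock, where it was not above background, so that it was at least 1.38-fold higher in recovery. The antiviral genes Rsad2 and Ifit3, named in the same way, stood at 0.43 (adjusted p = 0.0211) and 0.21 (adjusted p = 0.0787) from mock in recovery, beside 6.60 and 5.40 for 5aza-dC minus mock. Under median scaling 0 of the 29 rose and 1 fell, and the list median was 0.12 above that of all genes.

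Oas1g, an oligoadenylate synthetase that senses double-stranded RNA, was below mock. It had 4.90 and 4.93 in recovery and 10.20 and 10.15 in 5aza-dC, against 6.17 and 6.14 in mock, a difference of -1.23 ± 0.07 relative to mock (adjusted p = 7.59e-05). Isg15, a ubiquitin-like modifier, and Isg20, an exonuclease, both chosen after their values were seen, also fell, Isg15 with a difference of -0.33 (adjusted p = 0.0202) and Isg20, not above background in recovery, by at least 1.06-fold (adjusted p = 0.0277), while Bst2, a membrane tether of viruses, was at -0.50 (adjusted p = 0.111).

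Genes of class I antigen presentation, which display peptides at the cell surface, gave 5 risen (26.3%) and 3 fallen (15.8%) of 19 tested, with a median of 0.11, beside 1.69 for 5aza-dC minus mock, and 1 rose and 0 fell under median scaling. The transcription activator of the pathway, Nlrc5, remained above mock, with 6.35 and 6.32 in recovery and 7.75 and 7.83 in 5aza-dC, against 4.94 and 5.02 in mock, a rise of 1.35 ± 0.07 (adjusted p = 6.71e-05). H2-D1, a classical class I heavy chain, had 11.26 and 11.15 in recovery and 12.71 and 12.72 in 5aza-dC, against 10.02 and 9.87 in mock, a rise of 1.26 ± 0.08 (adjusted p = 0.000146), which did not pass under median scaling. B2m, the light chain of the same complex and chosen after its value was seen, differed by 0.06 (adjusted p = 0.51). Class I heavy chain genes are close copies, and 1 probe may bind RNA of several of them.

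**Figure D2:**
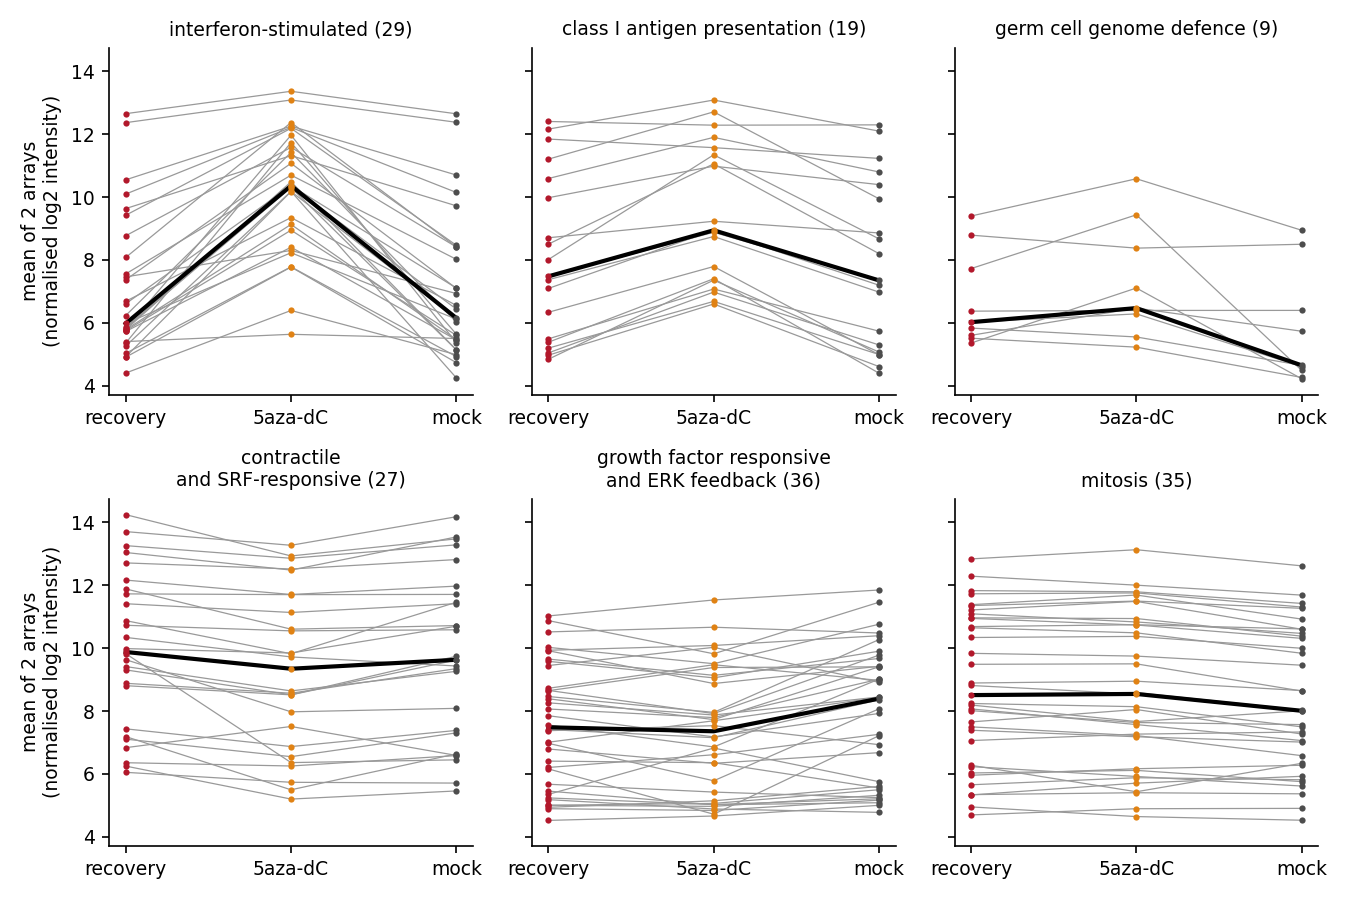
Levels of the tested members of 6 gene lists (number in brackets) in recovery, 5aza-dC and mock, as the mean of 2 arrays in normalised log2 intensity. Each grey line is a gene and the black line the list median. The medians of interferon-stimulated and class I genes peak in 5aza-dC and lie near mock in recovery, while the median of growth factor responsive genes, a list drawn up in knowledge of genes that moved, is below mock in recovery and in 5aza-dC.

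More chemokine and cytokine genes fell than rose. Of 17 tested, 2 rose (11.8%) and 8 fell (47.1%), with a median of -0.22, beside 0.34 for 5aza-dC minus mock, and 0 rose and 4 fell under median scaling. The risen ones were the chemokine genes Cxcl12, by 0.56 (adjusted p = 0.00302), and Ccl7, by 0.40 (adjusted p = 0.0198), both named after their values were seen. Cx3cl1, the membrane-bound chemokine fractalkine, had 7.69 and 7.84 in recovery and 8.40 and 8.22 in 5aza-dC, against 9.36 and 9.47 in mock, a difference of -1.65 ± 0.10 (adjusted p = 8.5e-05). Ccl5, a chemokine for T cells and monocytes, had 5.30 and 5.40 in recovery and 8.77 and 8.93 in 5aza-dC, against 6.66 and 6.77 in mock, a difference of -1.36 ± 0.09 (adjusted p = 0.00014). Il11, a cytokine of the interleukin-6 family, fell to 5.62 and 5.53 in recovery, against 6.87 and 6.87 in mock, with 4.89 and 4.98 in 5aza-dC (difference -1.30 ± 0.08, adjusted p = 8.4e-05). In each of these 3 genes both recovery arrays were below both mock arrays, as in 34.1% of the genes tested. They were named because they were called, so this order largely follows from the choice.

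Growth factor responsive genes and feedback regulators of the ERK kinase cascade fell more often than they rose. Of 36 tested, 20 fell (55.6%) and 6 rose (16.7%), with a median of -0.43, beside -0.45 for 5aza-dC minus mock. This list was drawn up in knowledge of genes that moved in these samples, so its direction is no independent evidence. Under median scaling 13 of the 36 fell and 0 rose. Hbegf, a ligand of the EGF receptor, had 8.49 and 8.43 in recovery and 7.99 and 7.93 in 5aza-dC, against 10.27 and 10.28 in mock, a difference of -1.81 ± 0.07 (adjusted p = 2.56e-05). The ERK phosphatase gene Dusp5 had 7.54 and 7.58 in recovery and 6.83 and 6.88 in 5aza-dC, against 9.05 and 8.98 in mock, a difference of -1.46 ± 0.07 (adjusted p = 4.54e-05). Levels of both genes in recovery lay between those of 5aza-dC and mock.

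Plau, the urokinase plasminogen activator, and the pseudokinase gene Trib1 fell, with differences of -1.43 ± 0.08 (adjusted p = 7.72e-05) and -1.10 ± 0.09 (adjusted p = 0.000315), while a further Trib1 probe gave -0.18. Pdgfb, which encodes a chain of platelet-derived growth factor, had 6.58 and 6.61 in recovery and 7.85 and 7.96 in 5aza-dC, against 8.64 and 8.44 in mock, a difference of -1.95 ± 0.09 (adjusted p = 4.28e-05). Myc and Egr1, the growth-responsive transcription factors, were chosen after their values were seen and were at -0.95 (adjusted p = 0.000616) and -0.32 (adjusted p = 0.045). Against this direction, the phosphatase gene Dusp1 rose by 0.54 (adjusted p = 0.00335) and the ETS factor Etv1 by 0.85 (adjusted p = 0.00128), both also chosen after their values were seen.

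Most of the 15 largest falls lay outside these lists. Angptl4, a secreted inhibitor of lipoprotein lipase, had 7.39 and 7.40 in recovery and 9.06 and 9.10 in 5aza-dC, against 10.43 and 10.34 in mock, a difference of -2.99 ± 0.07 (adjusted p = 3.82e-06). Its level in recovery was below that at the end of exposure too, with a difference of -1.69 (adjusted p = 1.26e-05), and its deposited signal was 194 in recovery, 593 in 5aza-dC and 1652 in mock. Nppb, the B-type natriuretic peptide, followed the same order with 6.40 and 6.46 in recovery, 7.16 and 7.12 in 5aza-dC and 8.71 and 8.74 in mock, a difference of -2.29 ± 0.07 from mock (adjusted p = 1.11e-05).

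Serpinb2, an inhibitor of plasminogen activators, stood at 5.87 and 5.76 in recovery and 5.59 and 5.20 in 5aza-dC, against 8.43 and 8.45 in mock, a difference of -2.63 ± 0.13 (adjusted p = 4.54e-05). Sema7a, a membrane-anchored semaphorin, stood at 6.48 and 6.62 in recovery and 5.0 and 4.85 in 5aza-dC, against 8.41 and 8.44 in mock, a difference of -1.88 ± 0.09 (adjusted p = 4.28e-05), with -0.89 at a further probe. In contrast to Angptl4, Sema7a was higher in recovery than in 5aza-dC, by 1.62 (adjusted p = 3.45e-05). Tnik, a kinase of the Wnt pathway, and Mmp10, a matrix metalloproteinase, were detected on neither recovery array and were at least 2.46-fold (adjusted p = 7.59e-05) and 2.05-fold (adjusted p = 0.00028) lower in recovery than in mock.

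Of the other strong falls, Oaf was at -1.65 ± 0.12 (adjusted p = 0.000182) and Hmga2-ps1, a pseudogene copy of the chromatin gene Hmga2 whose signal cannot be told from that gene's here, at -1.68 ± 0.11 (adjusted p = 0.000141). Bhlhe40, a transcriptional repressor of the circadian clock, Ppan, a ribosome assembly factor, and Polr2g, a subunit of RNA polymerase II, fell, with differences of -1.84 ± 0.17, -1.61 ± 0.16 and -1.44 ± 0.29 (adjusted p = 0.000611, 0.0007 and 0.00769), and a further Ppan probe gave -0.82. For Polr2g the levels were 5.78 and 5.86 in recovery, against 6.75 and 7.78 in mock, and the difference without mock array 2 was -0.93. The same array was the higher one for Bhlhe40, at 5.59 and 5.66 in recovery, against 7.18 and 7.74 in mock. So it was for Ppan, at 7.89 and 7.85 in recovery, against 9.23 and 9.73 in mock.

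**Figure D3:**
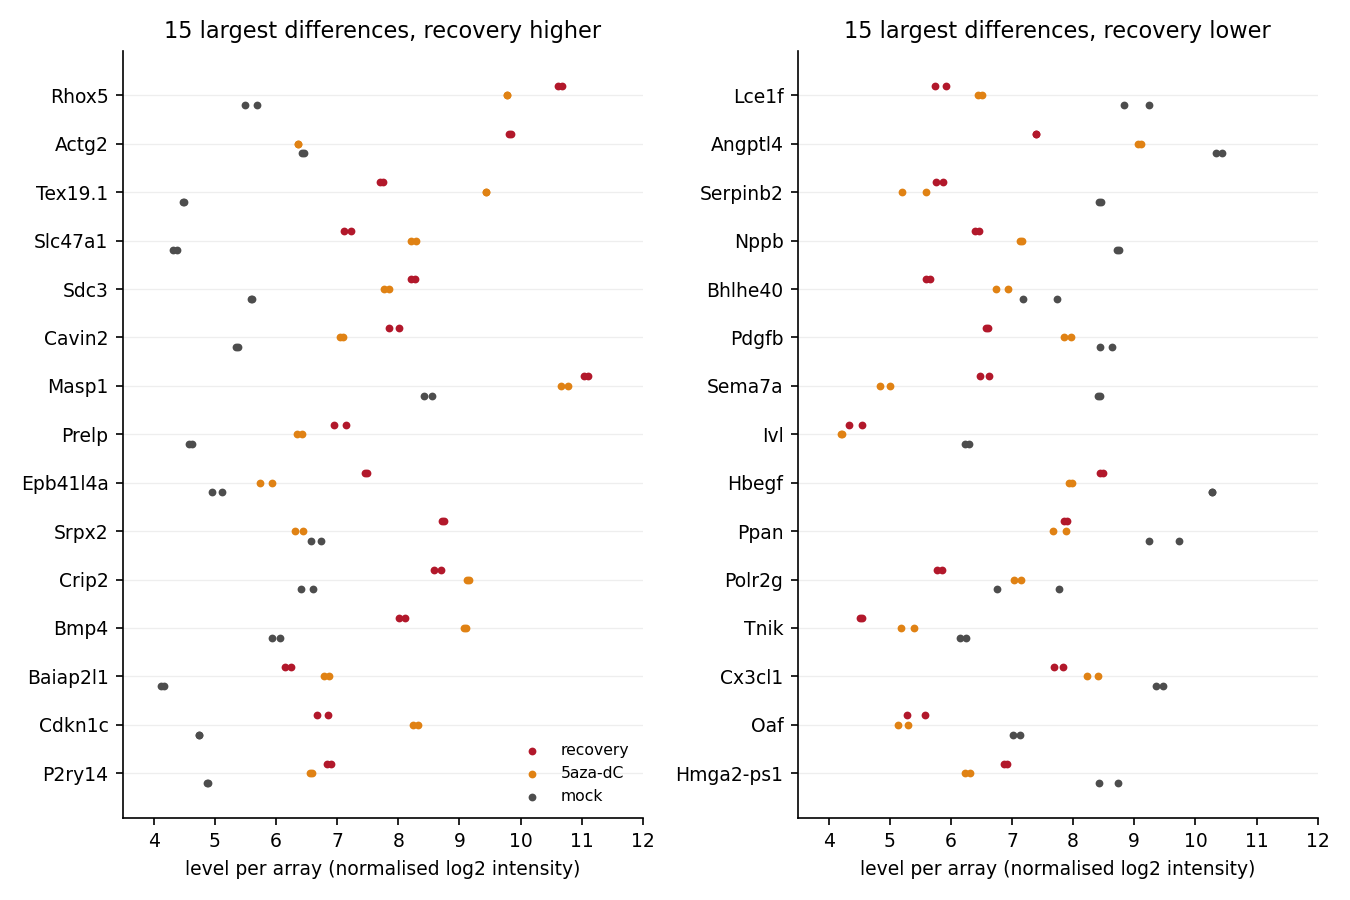
Level on each array (normalised log2 intensity) of the 15 called genes with the largest recovery minus mock differences in each direction, with recovery in red, 5aza-dC in orange and mock in grey. The 30 genes were chosen for large differences in these data, so the gap between recovery and mock arrays is no further evidence. In the left panel the 5aza-dC arrays of Srpx2 lie below its mock arrays (limma difference -0.27, adjusted p = 0.0349). Those of Actg2 lie close to mock (limma difference -0.09, adjusted p = 0.308).

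Contractile genes moved in both directions, as did all genes tested, of which 23.9% rose and 20.5% fell. Of 27 tested, 9 rose (33.3%) and 7 fell (25.9%), with a median of 0.05, beside -0.33 for 5aza-dC minus mock. Under median scaling 2 rose and 1 fell. In all 20 were higher in recovery than in 5aza-dC (74.1%, where 23.5% of all genes tested were). Actg2, the gamma actin of smooth muscle, was the second largest rise of all, with 9.82 and 9.84 in recovery and 6.36 and 6.36 in 5aza-dC, against 6.43 and 6.46 in mock. Its difference was 3.38 ± 0.07 (adjusted p = 1.97e-06), while 5aza-dC minus mock was -0.09 (adjusted p = 0.308). In the deposited signal Actg2 read 844 in recovery, 128 in 5aza-dC and 146 in mock.

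Myl9, a regulatory light chain of smooth muscle myosin, had the same shape, with 9.67 and 9.60 in recovery and 8.0 and 7.96 in 5aza-dC, against 8.14 and 8.04 in mock, a rise of 1.55 ± 0.08 (adjusted p = 4.54e-05). Fhl1, a LIM protein of muscle on the X chromosome, rose by 1.17 ± 0.07 (adjusted p = 0.000135) but did not pass under median scaling. The smooth muscle genes Acta2 and Tagln and the skeletal actin gene Acta1, chosen after their values were seen, rose by 0.77, 0.55 and 0.79 (adjusted p = 0.000522, 0.00191 and 0.00121), beside -0.54, -1.14 and -0.26 for 5aza-dC minus mock. The transcription factor Srf, vinculin (Vcl) and Fhl2, chosen in the same way, fell, with differences of -0.43, -0.71 and -0.82 (adjusted p = 0.00583, 0.00114 and 0.00236). Of 26 measured skeletal muscle genes, 7 were tested, of which 2 rose and 0 fell, with Tnnt1, the slow troponin T, at least 1.4-fold higher (adjusted p = 0.000309) but not past the threshold under median scaling, and the muscle regulators Myod1 and Myog were not detected in either column. Both risen genes, Tnnt1 and Myl1, were detected on no mock array and entered the test only through recovery, so this count is a description.

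Matrix genes of fibroblasts gave 13 risen (34.2%) and 8 fallen (21.1%) of 38 tested, with a median of 0.07, beside -0.24 for 5aza-dC minus mock, and 19 were higher in recovery than in 5aza-dC, while 1 rose and 0 fell under median scaling. Prelp, a leucine-rich proteoglycan that anchors basement membranes, had 6.95 and 7.14 in recovery and 6.34 and 6.42 in 5aza-dC, against 4.58 and 4.63 in mock, and was at least 4.77-fold higher in recovery than in mock (adjusted p = 2.03e-05). Decorin (Dcn), a related proteoglycan, rose by 1.23 ± 0.11 (adjusted p = 0.00045), though not under median scaling, and a further probe gave 0.60. The collagen gene Col6a2 and the glycoprotein gene Tnc, chosen after their values were seen, were at 0.79 (adjusted p = 0.00284) and -0.54 (adjusted p = 0.00193).

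Adhesion genes gave 12 risen (38.7%) and 10 fallen (32.3%) of 31 tested, with a median of 0.03, and 2 risen and 3 fallen under median scaling. Sdc3, a heparan sulphate proteoglycan of the cell surface, had 8.27 and 8.21 in recovery and 7.77 and 7.84 in 5aza-dC, against 5.59 and 5.60 in mock, a rise of 2.65 ± 0.07 (adjusted p = 6.7e-06). Cavin2, a coat protein of caveolae, had 7.85 and 8.02 in recovery and 7.10 and 7.05 in 5aza-dC, against 5.34 and 5.38 in mock, a rise of 2.57 ± 0.08 (adjusted p = 1.19e-05). Both genes were higher in recovery than in 5aza-dC, by 0.43 (adjusted p = 0.00373) and 0.86 (adjusted p = 0.000428). Cdh13, a cadherin without a cytoplasmic tail, had 8.76 and 8.87 in recovery and 7.0 and 7.05 in 5aza-dC, against 7.59 and 7.50 in mock, a rise of 1.27 ± 0.08 (adjusted p = 0.000112) that did not pass under median scaling.

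Secreted signals of the TGF-beta superfamily moved in both directions, and of 29 tested genes of the TGF-beta, BMP and Wnt pathways 10 rose (34.5%) and 6 fell (20.7%), with a median of 0.15, and 1 rose and 3 fell under median scaling. Bmp4, a ligand of the family, had 8.11 and 8.01 in recovery and 9.08 and 9.11 in 5aza-dC, against 5.93 and 6.07 in mock, a rise of 2.06 ± 0.08 (adjusted p = 2.56e-05). The ligand gene Tgfb3 and the inhibitory Smad6 rose by 1.14 ± 0.10 (adjusted p = 0.000355) and 1.01 ± 0.11 (adjusted p = 0.000849), neither of which passed under median scaling. Inhba, which encodes the subunit of activin A, fell to 9.73 and 9.70 in recovery, against 10.84 and 10.89 in mock (difference -1.15 ± 0.08, adjusted p = 0.000151). Of 17 tested proteases and inhibitors, 6 rose (35.3%) and 9 fell (52.9%), with a median of -0.31, and 0 rose and 3 fell under median scaling. Adamts1, a metalloprotease that cleaves proteoglycans, rose by 1.11 ± 0.10 (adjusted p = 0.000505), though not under median scaling.

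Among the strong rises outside the lists, Slc47a1, an exporter of organic cations, had 7.12 and 7.23 in recovery and 8.29 and 8.21 in 5aza-dC, against 4.37 and 4.31 in mock, and was at least 5.21-fold higher in recovery than in mock (adjusted p = 6.8e-06). Masp1, a protease of the lectin pathway of complement, was bright in all groups, with 11.03 and 11.10 in recovery and 10.78 and 10.66 in 5aza-dC, against 8.42 and 8.54 in mock, a rise of 2.58 ± 0.08 (adjusted p = 1.19e-05). Crip2, a LIM domain protein, rose by 2.13 ± 0.09 (adjusted p = 3.05e-05) and Epb41l4a by 2.43 ± 0.10 (adjusted p = 2.56e-05). P2ry14, a receptor for UDP-glucose, rose by 1.99 ± 0.07 (adjusted p = 2.03e-05), and Baiap2l1, which bends membranes with actin, was at least 2.66-fold higher (adjusted p = 2.04e-05). Further probes gave 0.67 for Slc47a1, 1.25 for Masp1 and 1.07 for P2ry14.

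Some genes differed between recovery and mock with only a small difference at the end of exposure, under 0.5 on the log2 scale. On the higher side these were led by Actg2, Srpx2, Xlr4a, Myl9 and Smpd3. Srpx2, a secreted sushi repeat protein on the X chromosome, had 8.71 and 8.74 in recovery and 6.32 and 6.44 in 5aza-dC, against 6.73 and 6.57 in mock, a rise of 2.08 ± 0.09 (adjusted p = 3.05e-05). It exceeded 5aza-dC by 2.35 (adjusted p = 7.62e-06), and 2 further probes of the gene gave 2.05 and 2.12. Smpd3, a neutral sphingomyelinase, had 6.81 and 6.72 in recovery and 5.74 and 5.77 in 5aza-dC, against 5.39 and 5.23 in mock (difference 1.45 ± 0.08, adjusted p = 7.94e-05).

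On the lower side Polr2g, Med28, Mmp10, Gng2 and Jaml led. Gng2, a G protein gamma subunit, had 6.05 and 5.96 in recovery and 7.17 and 7.14 in 5aza-dC, against 7.23 and 7.36 in mock, a difference of -1.29 ± 0.08 (adjusted p = 0.000112). Jaml, a junctional adhesion protein, had 6.08 and 6.07 in recovery and 7.10 and 7.09 in 5aza-dC, against 7.40 and 7.29 in mock, a difference of -1.27 ± 0.07 (adjusted p = 8.31e-05), with -0.72 at a further probe. Recovery arrays were below the arrays of both other groups in these 2 genes, which largely follows from the rule that named them. Med28, a subunit of the Mediator complex, differed by -1.36 ± 0.17 (adjusted p = 0.00147), with 6.49 and 6.16 in recovery, against 7.44 and 7.91 in mock, where array 2 was the higher.

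Most tested genes of mitosis rose. Of 35 tested, 23 rose (65.7%) and 1 fell (2.9%), with a median of 0.41, beside 0.36 for 5aza-dC minus mock. Under median scaling none passed in either direction (0 of 35), and the list median was 0.34 above that of all genes. Kif11, the motor that separates spindle poles, had 8.13 and 8.01 in recovery and 7.55 and 7.59 in 5aza-dC, against 7.04 and 7.08 in mock, a rise of 1.01 ± 0.08 (adjusted p = 0.000229), not passed under median scaling. The kinase gene Plk1, chosen after its value was seen, rose by 0.63 (adjusted p = 0.00109), while Cdk1 was at 0.09 (adjusted p = 0.43). Replication genes gave 15 risen (37.5%) and 3 fallen (7.5%) of 40, with a median of 0.15, and 0 rose and 1 fell under median scaling. Rfc4, a subunit of the clamp loader, fell by 0.86 ± 0.19 (adjusted p = 0.0117), but not without recovery array 1 (adjusted p = 0.0614), and the difference without mock array 2 was -0.57. Histone genes gave 8 risen (44.4%) and 2 fallen (11.1%) of 18, with a median of 0.23 and none past the threshold under median scaling, and H2ac18, whose coding sequence is shared by close copies, rose by 1.05 ± 0.08 (adjusted p = 0.00024), though not under median scaling.

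Of 29 tested cell cycle inhibitors and p53 targets, 11 rose (37.9%) and 5 fell (17.2%), with a median of 0.07, and 0 rose and 1 fell under median scaling. Sesn1, a stress-induced regulator of growth signalling, rose by 0.88 ± 0.10 (adjusted p = 0.00119), not passed under median scaling, and its further probes gave 0.36 and 0.91. Cdkn1c, the p57 inhibitor of cyclin-dependent kinases and an imprinted gene, had 6.85 and 6.67 in recovery and 8.32 and 8.24 in 5aza-dC, against 4.74 and 4.74 in mock, and was at least 3.92-fold higher in recovery than in mock (adjusted p = 3.05e-05). Of the 15 tested imprinted genes, which are expressed from 1 parental allele, 5 rose (33.3%) and 1 fell (6.7%), with a median of 0.12, and 1 rose and 0 fell under median scaling. The adaptor gene Gab1 rose by 1.32 ± 0.09 (adjusted p = 0.000187), though not under median scaling.

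Genes of ribosome assembly and of sterol synthesis fell more often than they rose. Of 36 tested ribosome biogenesis genes 24 fell (66.7%) and 0 rose, with a median of -0.41, beside -0.69 for 5aza-dC minus mock, and 17 were higher in recovery than in 5aza-dC (47.2%). This list too was drawn up in knowledge of genes that moved, and all lists were chosen with earlier results of these data known. Under median scaling 4 of the 36 fell and 0 rose. Pa2g4, a nucleolar growth regulator, had 6.92 and 6.91 in recovery and 6.38 and 6.80 in 5aza-dC, against 7.77 and 8.19 in mock, a difference of -1.07 ± 0.17 (adjusted p = 0.0037). Mock array 2 was the higher, and recovery lay less than 2-fold below mock array 1. Emg1, a ribosomal RNA methyltransferase, fell by 0.98 ± 0.21 (adjusted p = 0.0107), with mock arrays at 7.21 and 7.91, and did not pass without recovery array 2 (adjusted p = 0.0576), while the difference without mock array 2 was -0.63. Of 22 genes of cholesterol and fatty acid synthesis, 14 fell (63.6%) and 0 rose, with a median of -0.45, beside -0.31 for 5aza-dC minus mock, and 2 fell and 0 rose under median scaling. Fdps, which makes farnesyl diphosphate, had 12.32 and 12.33 in recovery and 12.68 and 12.69 in 5aza-dC, against 13.22 and 13.20 in mock, a difference of -0.89 ± 0.07 (adjusted p = 0.000248), with -0.36 at a further probe.

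**Figure D4:**
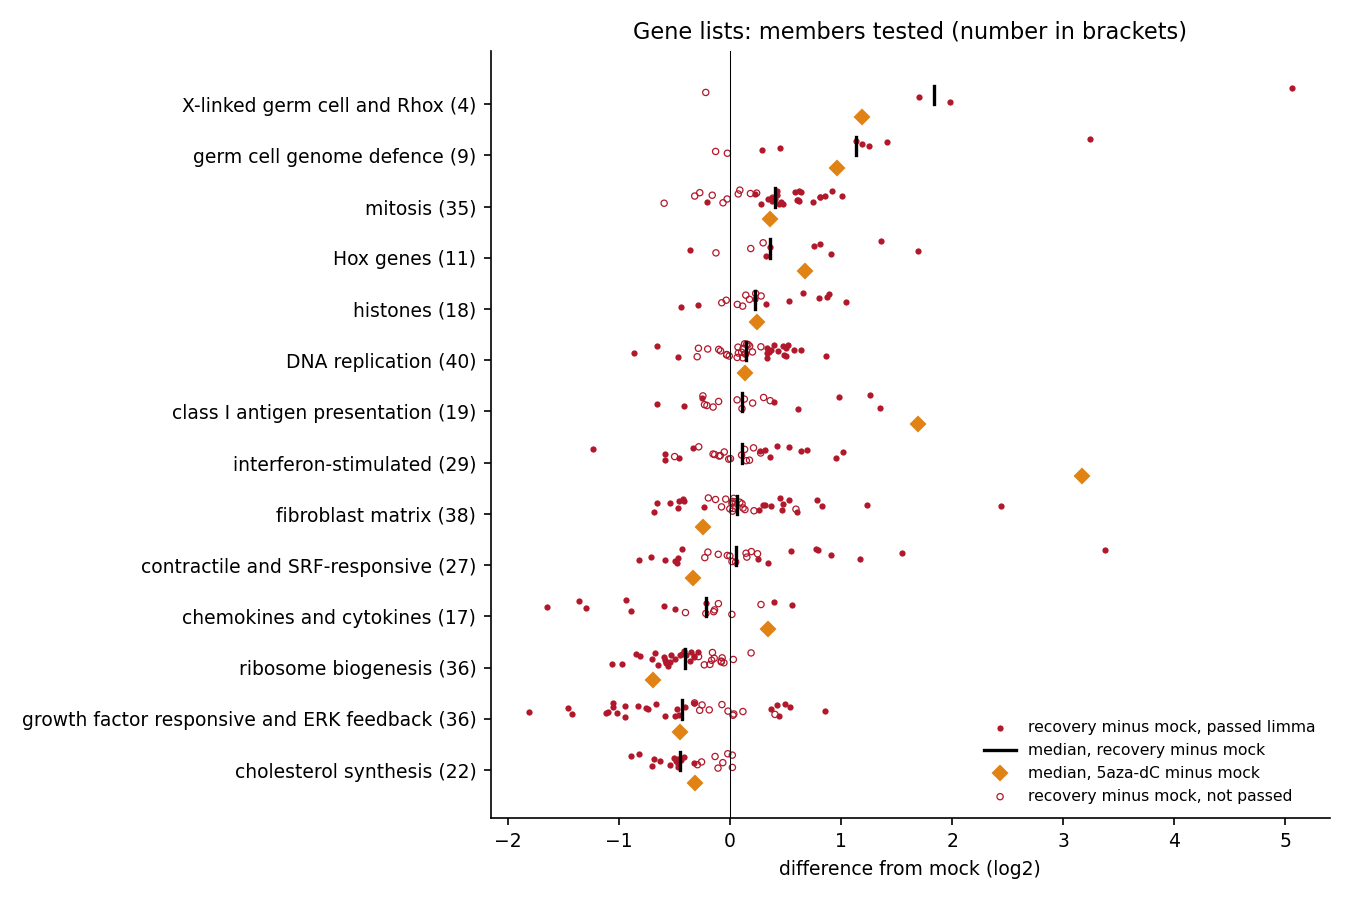
Recovery minus mock difference (log2, limma on 2 arrays per group) of every tested member of 14 gene lists, filled where the gene passed limma and open where it did not, with the list median as a black bar and the median of 5aza-dC minus mock as an orange diamond. The recovery median is -0.45 for cholesterol synthesis and 1.84 for the X-linked germ cell list, where it rests on 4 of 26 measured genes that include Xlr4a and Tex13b, tested only because recovery detected them, and the gap between both medians is widest for interferon-stimulated genes.

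Hox genes, which set position along the body axis, gave 7 risen (63.6%) and 1 fallen (9.1%) of 11 tested of 34 measured, with a median of 0.36, beside 0.68 for 5aza-dC minus mock, and 2 rose and 0 fell under median scaling. Hoxc9 and Hoxa5, both risen, and Hoxa4 were detected on no mock array and entered the test only through recovery. Hoxb4, which fell, entered only through mock, so these counts are a description. Hoxc9 had 6.05 and 6.32 in recovery and 5.39 and 5.20 in 5aza-dC, against 4.53 and 4.45 in mock, at least 2.63-fold higher in recovery than in mock (adjusted p = 0.000153) and higher than in 5aza-dC by 0.89 (adjusted p = 0.00128). Hoxa2 had 7.0 and 6.96 in recovery and 6.98 and 6.85 in 5aza-dC, against 5.73 and 5.52 in mock, a rise of 1.36 ± 0.10 (adjusted p = 0.00018). Of 6 tested pluripotency and early embryo genes, 2 rose and 2 fell (0 and 2 under median scaling), and the T-box factor Tbx3 was at -1.19 ± 0.07 (adjusted p = 7.59e-05), with -1.36 to -0.37 at 3 further probes.

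The DNA methylation machinery gave 6 risen (27.3%) and 4 fallen (18.2%) of 22 tested, near the share of all genes, with a median of 0.07, and 0 rose and 2 fell under median scaling. Dnmt1 had 8.83 and 8.72 in recovery and 8.60 and 8.68 in 5aza-dC, against 8.72 and 9.11 in mock, a difference of -0.14 ± 0.13 (adjusted p = 0.394). Uhrf1 differed by 0.05 ± 0.13 (adjusted p = 0.781). Dnmt3b was lower, with 7.37 and 7.22 in recovery and 6.51 and 6.39 in 5aza-dC, against 7.95 and 8.20 in mock, a difference of -0.78 ± 0.11 from mock (adjusted p = 0.00211) and a rise of 0.84 over 5aza-dC (adjusted p = 0.00138). The probe of Dnmt3a was not detected, with detection p-values of 0.331 in recovery and 0.498 in mock. Zbtb33, a methyl-CpG binding zinc finger protein, fell by 0.78 ± 0.16 (adjusted p = 0.0083). It had 6.65 and 6.46 in recovery, against 7.10 and 7.57 in mock, with mock array 2 the higher. Across the alternative settings its difference on the columns ran from -0.98 to -0.13. Genes that take up and phosphorylate deoxycytidine analogs gave 4 risen and 4 fallen of 17 (0 and 1 under median scaling), with a median of -0.01, and the nucleoside transporter gene Slc29a2 fell by 1.11 ± 0.11 (adjusted p = 0.000768), with -0.31 at a further probe.

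Stress and metabolic lists held both risen and fallen genes, as did all genes tested, of which 23.9% rose and 20.5% fell. Stress response genes gave 7 risen (24.1%) and 9 fallen (31.0%) of 29 (0 and 1 under median scaling), and the small heat shock protein gene Hspb1 rose by 1.05 ± 0.09 (adjusted p = 0.000417), not passed under median scaling. Oxidative stress and metal genes gave 8 risen (33.3%) and 6 fallen (25.0%) of 24. The metallothionein gene Mt2, detected on neither recovery array, was at least 1.68-fold lower (adjusted p = 0.0438). It did not pass limma without recovery array 1, recovery array 2 or mock array 1 (adjusted p up to 0.174), and none of the 24 passed under median scaling. Glycolysis and hypoxia genes gave 4 risen (18.2%) and 6 fallen (27.3%) of 22 (0 and 4 under median scaling). The carbonic anhydrase gene Car9 was at least 1.71-fold lower (adjusted p = 5.77e-05). Of 13 tested genes often used as loading controls 1 rose and 4 fell (0 and 1 under median scaling), and Ywhaz, a 14-3-3 protein gene, was at 9.22 and 9.14 in recovery, against 9.87 and 10.42 in mock, with mock array 2 the higher.

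The labelled cell type was checked against its markers. Of 14 fibroblast markers 13 were detected in recovery and in mock, and Fap was not. Among them 6 rose and 3 fell, none of which passed under median scaling, Pdgfra rose by 1.15 ± 0.09 (adjusted p = 0.00028), and their summed linear level was 23215 and 23353 on the recovery arrays, against 19205 and 19898 on the mock arrays. Of 42 epithelial markers, 8 were detected in recovery and 10 in mock, with sums of 1254 and 1247 in recovery, against 1655 and 1777 in mock. On the linear scale a single gene, Lce1f, described below, made up nearly all of this gap. Epcam, Cdh1, Krt5 and Krt18 were not detected in either group.

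Of 12 epithelial genes tested, 4 rose and 6 fell, with a median of -0.35, and 1 rose and 3 fell under median scaling. Lce1f, a gene of the cornified envelope of skin, had 5.92 and 5.75 in recovery and 6.44 and 6.52 in 5aza-dC, against 8.83 and 9.25 in mock, a difference of -3.20 ± 0.14 (adjusted p = 3.52e-05), the strongest fall of all genes tested. Involucrin (Ivl) was detected on neither recovery array and was at least 2.58-fold lower (adjusted p = 4.61e-05), with -0.54 at a further probe, while Sprr2a1, also of that envelope, did not pass (difference -0.17, adjusted p = 0.368). The desmosome gene Pkp1 fell by 1.23 ± 0.08 (adjusted p = 0.000138). Keratin 14 (Krt14) rose, with 7.35 and 7.41 in recovery and 10.30 and 10.31 in 5aza-dC, against 6.08 and 5.78 in mock, a difference of 1.45 ± 0.11 (adjusted p = 0.000206). The keratin gene Krt8 rose by 1.10 (adjusted p = 0.00046), and Trp63, a transcription factor of squamous epithelium, and the tight junction gene Cldn6, neither above background in mock, were at least 1.34-fold (adjusted p = 0.00764) and 1.24-fold higher (adjusted p = 0.00465). Sprr2a1, Krt8, Trp63 and Cldn6 were named after their values were seen.

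The other marker lists were sparse. Neural markers were detected for 7 of 31 genes in recovery and in mock, with sums of 2140 and 2072 in recovery, against 1658 and 1669 in mock, and of 8 tested 4 rose and 1 fell (1 and 0 under median scaling). Sncg, a synuclein detected on no mock array and so tested only through recovery, was at least 3.61-fold higher (adjusted p = 2.03e-05). Nrn1 and Dpysl3, genes of neurite growth, rose by 1.30 ± 0.13 (adjusted p = 0.000682) and 0.99 ± 0.09 (adjusted p = 0.00046), though not under median scaling. On the linear scale Dpysl3 made up most of the gap between the neural sums. The microtubule gene Map2 rose by 0.49 (adjusted p = 0.00588) and the intermediate filament gene Nes was lower, at -0.31 (adjusted p = 0.0444), both named after their values were seen, whereas Tubb3 and Gfap were not detected. Of 28 adipocyte markers 11 were detected in each group, with sums of 3257 and 3371 in recovery, against 3333 and 3301 in mock, and 5 rose and 4 fell (0 and 2 under median scaling). Pparg, the master regulator of fat cells, and the lipid droplet gene Plin4 rose by 1.03 ± 0.10 (adjusted p = 0.000665) and 1.17 ± 0.13 (adjusted p = 0.00101), neither past the threshold under median scaling, Cebpd fell by 0.92 ± 0.25 (adjusted p = 0.0224), not passed without recovery array 1 or mock array 2 (adjusted p up to 0.107) and at -0.54 without mock array 2, and Adipoq and Fabp4 were not detected.

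Endothelial markers were detected for 4 of 21 genes in recovery and 3 in mock, with sums of 919 and 918 in recovery, against 1194 and 1261 in mock, and of 4 tested 1 rose and 2 fell (0 and 1 under median scaling). Flt1, a VEGF receptor, fell by 1.02 ± 0.10 (adjusted p = 0.000711), with -0.28 at a further probe. It had 8.06 and 8.12 in recovery, less than 2-fold below mock array 1, against 8.98 and 9.24 in mock, with array 2 the higher. This gene made up most of the gap between the endothelial sums. Egfl7, a secreted endothelial factor, fell by 0.30 (adjusted p = 0.0249). Emcn, a surface sialoprotein not above background in mock and so tested only through recovery, was at least 1.37-fold higher (adjusted p = 0.000186). Both were named after their values were seen, while Kdr and Cdh5 were not detected. Blood markers were detected for 2 of 25 genes in recovery and 1 in mock, with sums of 766 and 755 in recovery, against 737 and 736 in mock, Ptprc not being detected. Coro1a, an actin regulator of leukocytes, rose by 0.55 ± 0.11 (adjusted p = 0.00906), but not without recovery array 2 (adjusted p = 0.054) or under median scaling. Skeletal muscle markers were detected for 7 of 26 genes in recovery and 5 in mock, with sums of 1051 and 1029 in recovery, against 1046 and 1020 in mock. The part of other cell types in the differences was not tested beyond these values.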

How the data were processed

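Per the file headers, the authors deposited a non-normalized table that gives each of 45281 probes its signal intensity and a detection p-value. Their second deposited table holds intensity after background subtraction and scaling, as read from its values. Of the software, the sources used here say nothing. RNA of recovery, 5aza-dC and mock cells was measured, 1 column per group, each a mean of duplicates.

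The 2 arrays behind each column were solved from both tables in Python 3.11.15 with scipy 1.17.1, using the steps that 936 negative controls per array give to the deposited detection p-values. The median misfit of recomputed p-values was 1.91e-05 in recovery, 2.46e-05 in 5aza-dC and 9.52e-05 in mock with 2 arrays, against 0.017, 0.0148 and 0.0202 with 1. The mean scaled intensity, which the fit did not use, was 224.5 and 224.6 for the recovery arrays and 224.7 and 224.4 for the mock arrays, beside 224.5 for each processed column. Simulated columns returned their scale ratios.

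Columns and solved arrays were background corrected from the detection p-values, with offset 16, quantile normalized and put on the log2 scale (limma 3.58.1 in R 4.3.3). A gene was represented by its probe with the highest mean. Of the probes, 34885 had 1 gene symbol, 18 had several and 10378 had none in the annotation used. limma (lmFit, eBayes, Benjamini-Hochberg) was fitted on 6 arrays, with 3 residual and 3.84 prior degrees of freedom. For recovery minus mock, it returned 36%, 89.5% and 98.5% of 200 genes simulated at log2 changes of 0.5, 1 and 2 among 8411, with 3, 6 and 9 false calls. The simulated noise was independent, with the same SD in all groups and no array that stood apart, unlike the mock pair here. Its false calls therefore do not give the error rate of the counts reported. The number of arrays limits the precision. There were 0 columns of other samples.

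Named genes are the 15 largest called differences each way, all detected germ line defence genes, Dnmt1, Dnmt3a, Dnmt3b and Uhrf1, from every other list at most 4 called members (if none was called, the detected member that differed most), and the 5 largest called genes each way with a 5aza-dC minus mock difference under 0.5. Up to 5 genes called in opposite directions in 5aza-dC and recovery were added. The members, the 34 lists and the tests were chosen with earlier results of these data known. Alternatives covered the authors' processed table, scaling, offset, detection limit, probe choice, fold limit and leaving out arrays. Promoter sequences are RefSeq's.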

Additional observations from a re-analysis of the deposited data

Results flagged for a closer look

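The 3 genes that were called in opposite directions against mock at the end of exposure and in recovery are Oas1g, Ccl5 and Tmem176b. The recovery minus 5aza-dC difference was -5.26 for the double-stranded RNA sensor Oas1g, -3.50 for the chemokine Ccl5 and -2.46 for Tmem176b, a membrane protein of immune cells, and limma with Benjamini-Hochberg adjustment passed all 3. Tmem176b had 6.46 and 6.45 in recovery and 8.93 and 8.90 in 5aza-dC, against 7.83 and 7.89 in mock, and was lower in recovery than in mock by limma (-1.40 ± 0.07, adjusted p = 4.7e-05). No array of 1 group overlapped with those of another in this gene, which largely follows from its choice by opposite calls.

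Probes that carried no gene symbol, or several, in the annotation used here also gave signal that differed. Of 10396 such probes 1952 were detected in recovery or mock, 28 were called higher in recovery and 58 lower. Of the genes tested, 1.81% were called higher and 1.65% lower. The share called higher was thus smaller among these probes than among the genes tested, and the share called lower was larger. These shares are of unlike units, since every detected probe counts here and a gene counts once, by its brightest probe. Whether the lower calls of these probes lean on mock array 2 was not tested. The strongest higher probes, ILMN_1257107 and ILMN_1225712, had deposited signals of 4794 and 6790 in recovery, against 339.9 and 647.8 in mock, with differences of 4.43 and 3.88. The strongest lower probes, ILMN_1223907 and ILMN_1244312, differed by -1.96 and -1.93. The columns of these probes have no test here.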

How the results depend on the processing

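Genes called higher and lower numbered 152 and 139. They numbered 217 and 263 on the authors' processed intensities, 73 and 467 when arrays were scaled to their median, 56 and 44 without background correction, 64 and 58 at offset 50, and 85 and 89 with the mean over probes of a gene. A call at 1.5-fold gave 664 and 616, and at 4-fold 16 and 4. A detection limit of 0.05 left both counts as they were, and no detection filter gave 153 and 139. Calls on array means with 1 array left out, an alternative chosen after seeing the data, ran from 149 to 168 higher and from 83 to 193 lower. By limma 2010 genes rose and 1722 fell. Median scaling gave 67 and 278, offset 50 gave 2142 and 1889, the mock and recovery arrays alone 1717 and 1444, and leaving out 1 array 1195 to 2186 and 997 to 1806. The cause of these shifts was not tested. Under median scaling the median over all genes was -0.31 on the columns and -0.27 in limma, and the list medians given under it are relative to the latter. Its calls and limma tests were not relative to these medians. They were made against no difference, so rises passed less easily and falls more easily. List medians changed sign for adhesion genes without the detection filter (-0.051) and with the mean over probes (-0.024), for adipocyte genes without the filter (-0.056), for neural genes with the mean over probes (-0.063) and for endothelial genes at a detection limit of 0.05 (0.058) and without the filter (0.027). Of 95 named genes 90 passed limma, and 24 of these no longer did under median scaling. No paired analysis was possible because the labels give no replicate numbers and 1 sample per group. limma without background correction was not run, since the solved arrays leave an additive constant between the 2 arrays of a pair undetermined. Signal near background limits the folds of genes detected in 1 group.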
